A study of Homo sapiens with 4 samples.

Results

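The small MAF proteins and the transcription factors they pair with were examined through the histone mark H3K27ac at 10 genes of 19970 protein-coding genes. The members were the small MAF genes MAFG, MAFF and MAFK, the activators NFE2L1 (NRF1) and NFE2L2 (NRF2), the inhibitors KEAP1 and BACH1, and the response genes HMOX1, NQO1 and GCLM. They were chosen by name and not by signal, though earlier results of these data were known. Peaks were taken within 1 kb of each gene's canonical start site and within 50 kb of its gene body (hg38, GENCODE release 44).

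H3K27ac ChIP-seq libraries came from 2 established human cell lines of triple-negative breast cancer, MDA-MB-231 and Hs578T, with 2 replicates each. In all 4 libraries the cells had been starved in optimem for 8 h and given TWEAK, the ligand of the receptor Fn14, at 10 ng/ml for 48 h. The labels then give a washout of 72 h, and the study's own text a longer one. Every group therefore shares TWEAK and its washout. Untreated or continuously treated libraries were not analysed here, so the response of these genes to TWEAK was not measured, and RNA levels were not part of the files used.

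Small MAF proteins are basic leucine zipper factors that bind DNA but have no activation domain of their own. They pair with cap'n'collar (CNC) factors such as NRF2, NRF1 and BACH1 on antioxidant response elements, and the partner decides whether the pair activates or represses. KEAP1 holds NRF2 in the cytoplasm and feeds it to a CUL3 ubiquitin ligase, and oxidants or electrophiles release it. BACH1 occupies the same elements as a repressor until haem removes it. In breast cancer cells the pathway is best known for its part in redox balance and drug resistance.

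A CNC–small MAF pair reads the core TGACNNNGC. A composite arrangement, the 10-base motif made of TGACTCAGC followed by A, holds both that core and the AP-1 site TGACTCA. It was searched on both strands and found at 10 places in the members' windows, and 8 of them lay under a peak of at least 1 list. These 8 belonged to 5 members, and 7 of them were under a peak in every list of over 10000 peaks. Of the 7140 composite matches within 50 kb of any protein-coding gene, 14.4% lay under a peak of at least 1 list and 11% under a peak of all 3 of these lists. The 8 are printed to show where a motif that the members' own products recognise fell under peaks, with the composite in capitals, read as its reverse complement, and with positions from the gene's start site (negative values lie upstream). All come from the hg38 reference.
MAFG +759 bp, chr17:81926957-81926986, minus strand: gagggagactTGCTGAGTCAtcagcgtgag
MAFG +4109 bp, chr17:81923607-81923636, minus strand: agaggcaatgTGCTGAGTCAgcgtgactcg
MAFF +39067 bp, chr22:38241051-38241080, minus strand: gcttctcctgTGCTGAGTCAcctgttccgt
BACH1 -66971 bp, chr21:29231941-29231970, plus strand: tgtcctcttgTGCTGAGTCAattcctgggt
BACH1 +1393 bp, chr21:29300305-29300334, plus strand: aaagttgggtTGCTGAGTCAttcgccccag
HMOX1 -9078 bp, chr22:35372008-35372037, plus strand: gtgtttttccTGCTGAGTCAcggtcccgag
HMOX1 -3941 bp, chr22:35377145-35377174, plus strand: tgctagatttTGCTGAGTCAccagtgcctc
NQO1 -455 bp, chr16:69726996-69727025, plus strand: gctcagattcTGCTGAGTCActgtgactgc

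Upstream of HMOX1 the core was repeated. Between -9077 and -8990 bp, 4 copies of TGACNNNGC stood with 29 bp from each to the next, all read from the minus strand, so that they appear in capitals below as their reverse complement. The 118 bases lie at chr22:35372008-35372125 on the plus strand and touch no annotated exon.
HMOX1 upstream: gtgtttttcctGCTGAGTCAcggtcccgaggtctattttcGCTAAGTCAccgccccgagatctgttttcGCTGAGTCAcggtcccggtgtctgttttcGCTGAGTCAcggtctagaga
At least 4 copies of the core within 150 bases were rare under peaks. They occurred in 15 of 43353 peaks (0.0346%) of MDA-MB-231 replicate 2, 17 of 46330 (0.0367%) of Hs578T replicate 1 and 15 of 44920 (0.0334%) of Hs578T replicate 2. In each of the 3 lists exactly 1 of those peaks lay near a member, the one upstream of HMOX1. This grouping was noticed in the data and then counted.

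The 4 lists were unequal. MDA-MB-231 replicate 1 held 209 peaks over 0.113 Mb, against 43353, 46330 and 44920 peaks over 81.8, 90.7 and 83.9 Mb in the other MDA-MB-231 list and the Hs578T lists. No peak of that small list lay within 50 kb of any member, so the values below are from the 3 large lists unless stated, and MDA-MB-231 rests on 1 library. Depth is unknown because the files hold no read counts. Among markers, VIM, CD44, AXL and FN1, genes of mesenchymal cells, were marked at the promoter in 4 of 4 cases in each large list. The luminal genes ESR1, GATA3 and FOXA1 and the leukocyte genes PTPRC, CD3E and CD79A had none. Of the 2 endothelial genes, CDH5 had none, and PECAM1 had one with a fold enrichment of 14.3 in MDA-MB-231 replicate 2 and of 2.82 in Hs578T replicate 1. For 2 lists against 2, the smallest p of a two-sided exact permutation test is 0.333, so the values are described without a test.

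Every one of the 10 members was marked at its start site in the 3 large lists. The share of all protein-coding genes with one was 0.0601% in MDA-MB-231 replicate 1, 58.1% in MDA-MB-231 replicate 2, 58.2% in Hs578T replicate 1 and 56.4% in Hs578T replicate 2, and 55.6% had one in all 3 large lists. The mean was 10 ± 0 members (SD, n = 2) in Hs578T and 5 ± 7.07 (SD, n = 2) in MDA-MB-231, where leaving out replicate 1 gave 10. Fold enrichment is the authors' ratio of ChIP signal over local background for a peak, and its size was compared only within a list. The members' median was 17.4, 14.0 and 11.9 in the 3 lists in the order above, beside medians of 9.18, 8.13 and 6.86 over all protein-coding genes with a promoter peak. In each list 9 of 10 members were above that median, and HMOX1 was the exception.

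**Figure D1:**
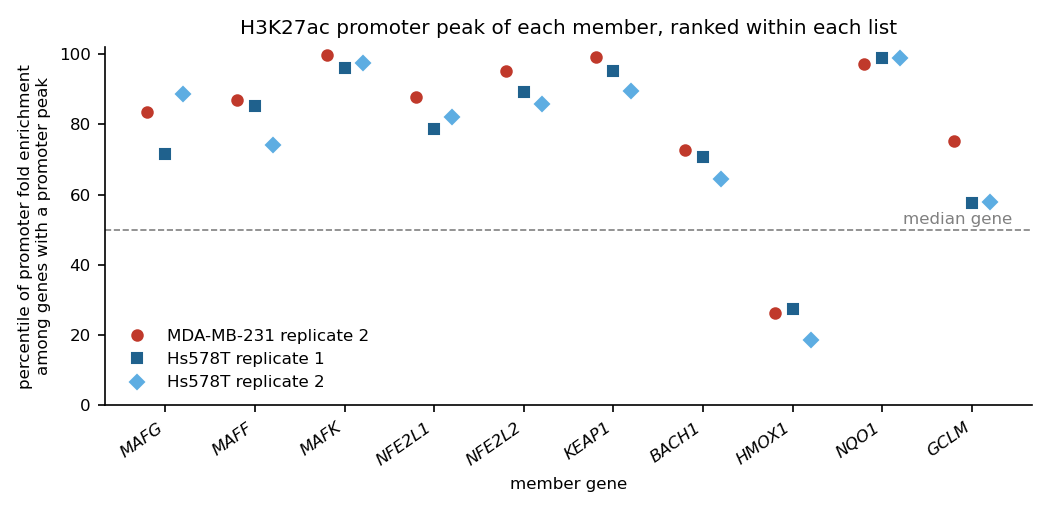
Percentile of each member's promoter fold enrichment (vertical axis, 0 to 100) among all protein-coding genes with a promoter peak, by member and by list (circle, MDA-MB-231 replicate 2; square and diamond, Hs578T replicates 1 and 2). MAFK, KEAP1 and NQO1 sit near the top in each list and HMOX1 alone lies under the dashed median, at 18.7 to 27.4.

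Of the small MAF genes, MAFK had the strongest and broadest start-site peak. MAFK (chr7:1530702-1543043, plus strand) reached a fold enrichment of 36.2 in MDA-MB-231 replicate 2, 21.8 in Hs578T replicate 1 and 18.8 in Hs578T replicate 2. These are percentiles of 99.7, 96.1 and 97.4 among genes with a promoter peak. Its peak was 9078 bp wide in MDA-MB-231 replicate 2 and 9305 bp in Hs578T replicate 1. In Hs578T replicate 2 the same stretch was called as separate peaks, of 3966 bp from 7 bp after the start site and of 3316 bp centred at 6920 bp (fold enrichment 18.1). Peaks covered 71.0%, 72.2% and 59.0% of the gene body. Elsewhere in its window the strongest peak away from any start site was at -9887 bp in MDA-MB-231 replicate 2 (12.1) and at -9938 bp in Hs578T replicate 1 (11.8).

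MAFG, a small MAF that pairs with NRF2, NRF1 and BACH1, lies on chr17:81918270-81927735 on the minus strand in a gene-dense stretch with 10 other protein-coding genes in its window. Its promoter fold enrichment was 15.8, 11.4 and 13.3, at percentiles 83.5, 71.5 and 88.6. The peak ran downstream from the start site over the first intron, with a width of 6301 bp in MDA-MB-231 replicate 2 and 5783 bp in Hs578T replicate 1. Hs578T replicate 2 split it into a peak of 1787 bp at the start site and one of 1279 bp (fold enrichment 6.47) centred at 3940 bp, which together covered 3066 bp. MAFG has 2 start sites in the GENCODE basic set, 4203 bp apart, and the downstream one lies under this smaller peak. The peak of MDA-MB-231 replicate 2 also spans the starts of ENSG00000264769 and of the divergent gene MILIP. That of Hs578T replicate 1 spans the ENSG00000264769 start, and the smaller peak of Hs578T replicate 2 lies within 1 kb of it. The mark can therefore not be assigned to MAFG alone. Both MAFG composite sites printed above lay under these peaks in the 3 lists, the one at +4109 bp under the smaller peak in Hs578T replicate 2. The highest peak of the window was that at the start of ARHGDIA in MDA-MB-231 replicate 2 (19.3) and Hs578T replicate 1 (19.8), whereas in Hs578T replicate 2 the MAFG peak (13.283) was just above it (13.251). Away from start sites the strongest peak was 29543 to 29677 bp downstream of the MAFG start, in an intron of a neighbouring gene, with fold enrichments of 13.2, 12.3 and 10.6.

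MAFF, a small MAF whose transcript is known to be induced by stress and inflammatory signals, lies on chr22:38200767-38216507 on the plus strand. Its promoter peak gave 17.2, 15.0 and 9.84 and was 2981, 2392 and 2228 bp wide. The mark was higher downstream than at the promoter. A region centred 16428 bp after the start site had 21.97, 15.3 and 12.9, one at 27438 bp had 31.3, 29.4 and 19.4, and one at 38666 bp had 25.8, 24.1 and 22.97. All 3 regions were above the promoter in all 3 lists. That at 27438 bp spans the annotated starts of the non-coding genes ENSG00000235246 and RN7SL704P, and the other two touch no start site. The region at 38666 bp holds the MAFF composite site, and its peaks stood at percentiles 98.3, 98.1 and 98.9 of all peaks of their lists.

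**Figure D2:**
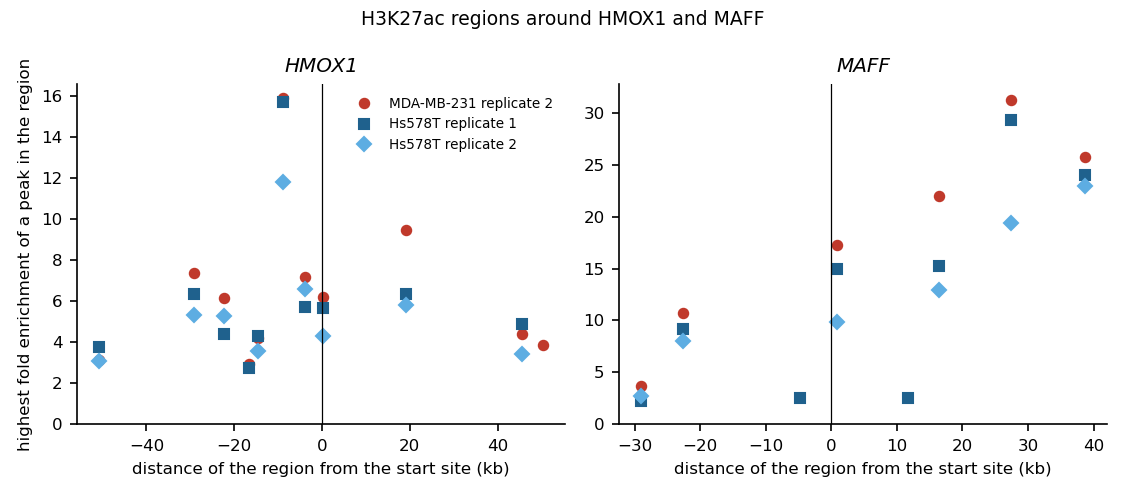
Highest fold enrichment of each merged region (vertical axis, ratio over local background, starting at 0) against the distance of its centre from the start site in kb, for HMOX1 and MAFF, with 1 point per list that called it. For HMOX1 the region at -8874 bp stands above the promoter in each list, and for MAFF the 3 regions downstream do.

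The activators NFE2L1 and NFE2L2 had start-site peaks above the median gene. NFE2L2 (chr2:177218667-177392756, minus strand), which encodes NRF2, gave 22.1, 16.7 and 12.4 over widths of 4516, 5294 and 4971 bp. NFE2L1 (chr17:48048329-48061545, plus strand), which encodes NRF1, a factor for proteasome genes, gave 17.6, 13.04 and 11.4 over 4608, 6847 and 4415 bp. Both peaks also span the start of a divergent non-coding gene, ENSG00000222043 at NFE2L2 and NFE2L1-DT at NFE2L1, so the mark cannot be assigned to one direction. The highest peak in the NFE2L2 window was at the start of HNRNPA3, an RNA-binding protein gene, with 26.4, 24.8 and 19.0. In the NFE2L1 window it was the gene's own promoter in MDA-MB-231 replicate 2 and the start of SNX11, a sorting nexin gene, in Hs578T replicates 1 (14.3) and 2 (12.1). Away from start sites, the strongest peak of the NFE2L2 window was in a region centred at -132197 bp, with 12.96, 20.4 and 17.9. For NFE2L1 it was at -23161, -23106 and -23088 bp with 14.0, 12.2 and 10.4. The NFE2L2 region lies in an intron of a neighbouring gene, outside the NFE2L2 body and next to a region at the AGPS start (-128386 bp). The NFE2L2 body spans 174090 bp against 34420 bp for the canonical transcript, and the region is more than 50 kb from that transcript.

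Of the inhibitors, KEAP1 had a strong promoter peak. KEAP1 (chr19:10486125-10503558, minus strand) gave 30.05, 20.8 and 13.6, at percentiles 99.1, 95.2 and 89.4, and widths of 2632, 2573 and 2465 bp. This was the highest peak of its window in each list. The window held 4, 5 and 3 peaks, which covered 3.73%, 4.36% and 3.28% of it and left KEAP1 lowest of the members by share. The median protein-coding gene had 4 peaks in each list and 3.78%, 4.17% and 3.82% covered, so the KEAP1 window was near the background. Its strongest peak away from start sites was weak, at 2.93, 2.66 and 2.72. BACH1 (chr21:29194071-29630751, plus strand) gave 12.9, 11.3 and 8.41 at its start site over 2441, 2149 and 1660 bp. The narrower peak in Hs578T replicate 2 ended 1270 bp after the start site, short of the composite site at +1393 bp, which was under the peak in the other two lists.

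The window of BACH1 is 536681 bp long, since the annotated gene body spans 436681 bp against 47227 bp for the canonical transcript, and it held 15, 14 and 15 peaks. Its highest peak was at -116451 bp, over or within 1 kb of the start of a small RNA annotated as U3, at 25.1, 26.998 and 23.3. That is above the BACH1 promoter in all 3 lists. The strongest peak at no start site was at -102562 bp in MDA-MB-231 replicate 2 (13.6), and at -135372 and -135316 bp in Hs578T replicates 1 (13.1) and 2 (11.8). At the composite site at -66971 bp the peak was weak, with 3.63, 3.64 and 4.03.

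Among the response genes, NQO1 and HMOX1 lay far apart. NQO1 (chr16:69706996-69726668, minus strand), a quinone reductase, gave 24.9, 27.8 and 22.1 at its start site, at percentiles 97.2, 99.0 and 98.9. The peak was 3997, 3405 and 3583 bp wide, lay mostly upstream, and spans the start of the divergent gene NQO1-DT and the composite site at -455 bp, which is the place of the classical NQO1 antioxidant response element. It was the highest of the window in each list, and the strongest peak at no start site was weak and far upstream (4.60, 3.36 and 3.81).

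HMOX1 (chr22:35380361-35394214, plus strand), which encodes haem oxygenase 1, had the lowest promoter fold enrichment of the 10 members in each list, at 6.21, 5.64 and 4.29 and percentiles 26.3, 27.4 and 18.7. The peak was 1197, 1283 and 1179 bp wide. The mark was higher upstream: the region at -8874 bp, which holds the 4 spaced cores, reached 15.9, 15.7 and 11.8, and it was the highest of the HMOX1 window in all 3 lists. The annotated start of a non-coding gene, ENSG00000282602, lies under this region or within 1 kb of it. The region at -3930 bp, which holds the other HMOX1 composite site, gave 7.16, 5.70 and 6.60 and was above the promoter in each list, in Hs578T replicate 1 by little. Paired distal enhancers upstream of this gene that CNC factors and small MAF proteins bind are textbook knowledge. At the start of the neighbour MCM5, a replicative helicase gene, the region gave 9.44, 6.33 and 5.82. At no start site the strongest peak was at -28937, -28908 and -29213 bp, with 7.36, 6.35 and 5.29.

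GCLM (chr1:93885199-93909456, minus strand), the modifier subunit of the enzyme that starts glutathione synthesis, had a narrow start-site peak. It was 993, 1343 and 692 bp wide and gave 13.6, 9.10 and 7.72. A single core lay at -34 bp from its start site, at chr1:93909446-93909475 on the plus strand, shown here because it lies right at the start site.
GCLM -34 bp: tggaagacaaTGACTAAGCagaaatcgtag
In Hs578T replicate 2 the edge of the peak fell within this core. GCLM had no peak away from a start site in any list, whereas such a peak was present within 50 kb for 70.9%, 73% and 72.3% of all protein-coding genes in the large lists and for 1.38% in MDA-MB-231 replicate 1. Its window held 3 peaks in each list, and the highest was at the start of DNTTIP2, with 19.4, 14.3 and 12.4.

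The highest peak of the window lay elsewhere than at the member's own promoter for 6, 7 and 6 of the 10 members in the 3 lists. Over all protein-coding genes with a promoter peak it did so for 61.2%, 63.5% and 64.5%, so the members' count was near the background.

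**Figure D3:**
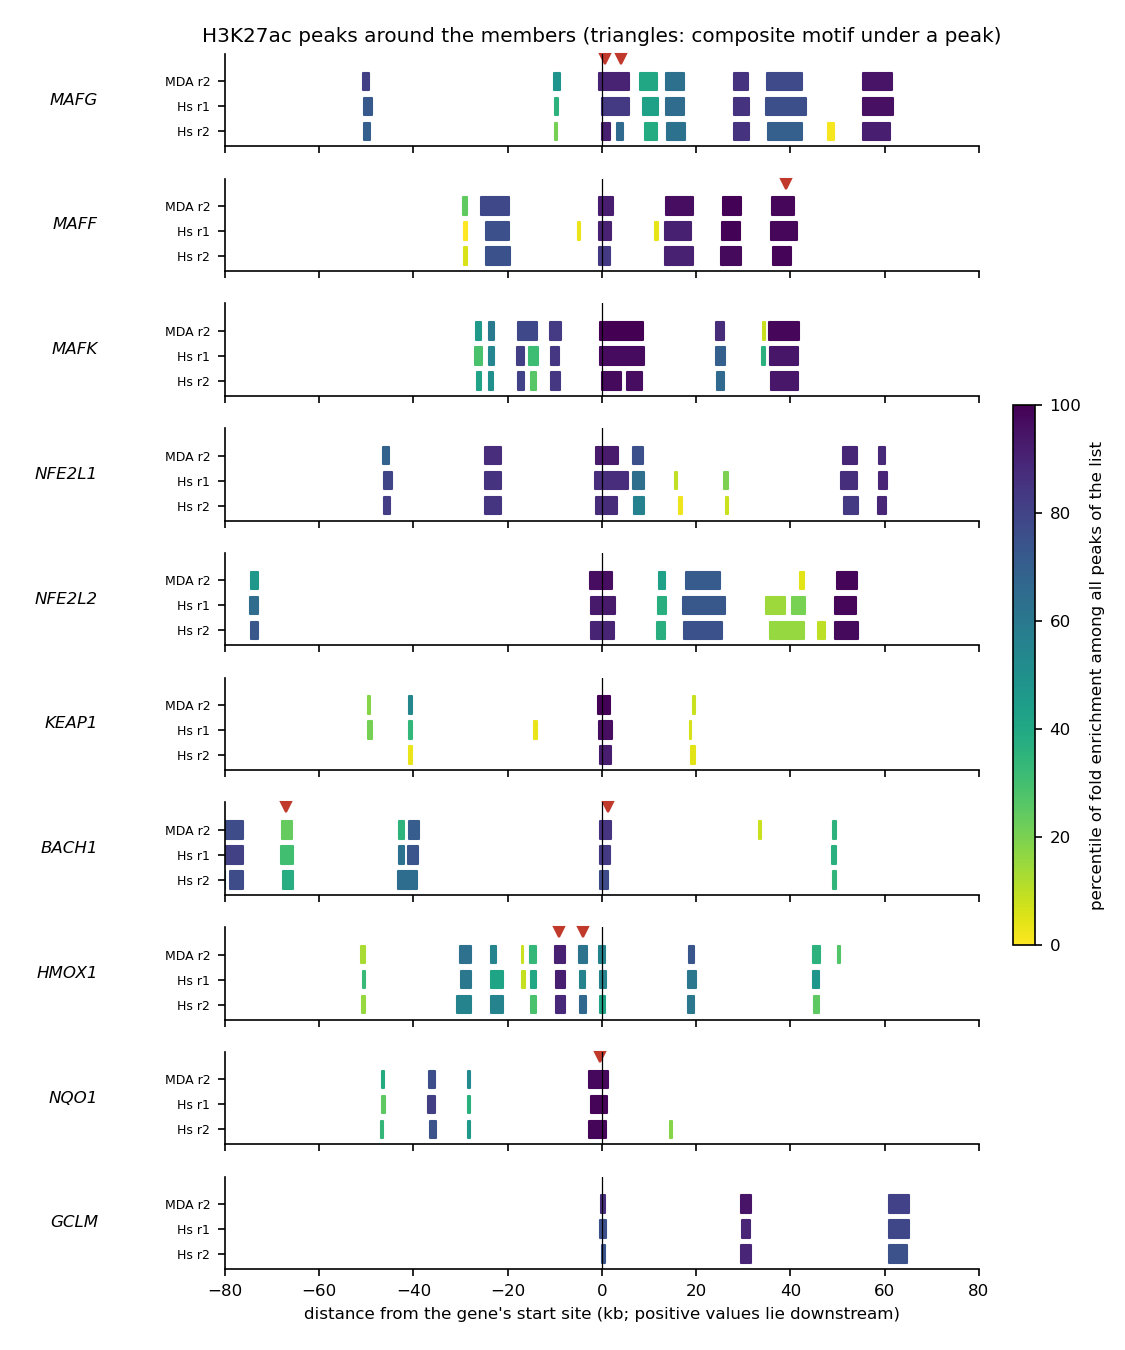
Peaks within 80 kb of each member's start site, with 1 track for each large list (MDA r2, MDA-MB-231 replicate 2; Hs r1 and Hs r2, Hs578T replicates 1 and 2), distance in kb on the horizontal axis and colour for the percentile of fold enrichment among all peaks of the list. Triangles mark the composite motif under a peak of at least 1 list. The tracks hold nearly the same regions, dense around MAFG and MAFK and sparse around KEAP1 and GCLM, and parts of the NFE2L2 and BACH1 windows lie outside the axis.

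Within 50 kb of the members there were 74 peaks in MDA-MB-231 replicate 2, 79 in Hs578T replicate 1 and 78 in Hs578T replicate 2, a mean of 78.5 ± 0.707 (SD, n = 2) in Hs578T. In each list 10 were at the members' own starts, 29, 31 and 31 were at starts of other genes, and 35, 38 and 37 were at no start site. These distal peaks had median fold enrichments of 6.17, 5.95 and 5.29, beside 4.74, 4.36 and 4.31 over all peaks of each list at no start site. Their midpoints were in introns in 19, 22 and 23 cases.

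The peaks covered 186767, 204408 and 187089 bp. Hs578T had a mean of 195748 ± 12246 bp (SD, n = 2), and the value of MDA-MB-231 replicate 2 was less than 1 SD below it. With its empty first list the MDA-MB-231 mean was 93384 ± 132064 bp (SD, n = 2). The median member had 10.97%, 13.1% and 13.1% of its window covered, beside 3.78%, 4.17% and 3.82% for the median protein-coding gene. This background and the percentiles below include genes without a promoter peak, whereas every member had one. The small MAF genes were the top 3 members in each list: MAFG had 27.6%, 27.8% and 24.7%, MAFK 22.9%, 22.4% and 18.4%, and MAFF 20.6%, 20.6% and 18.7%. MAFG stood at percentiles 98.8, 98.4 and 98.2 of all protein-coding genes. At the other end KEAP1 stood at 49.6, 51.4 and 45.3. Since windows hold neighbours too, a covered share describes the surroundings and not the gene alone.

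**Figure D4:**
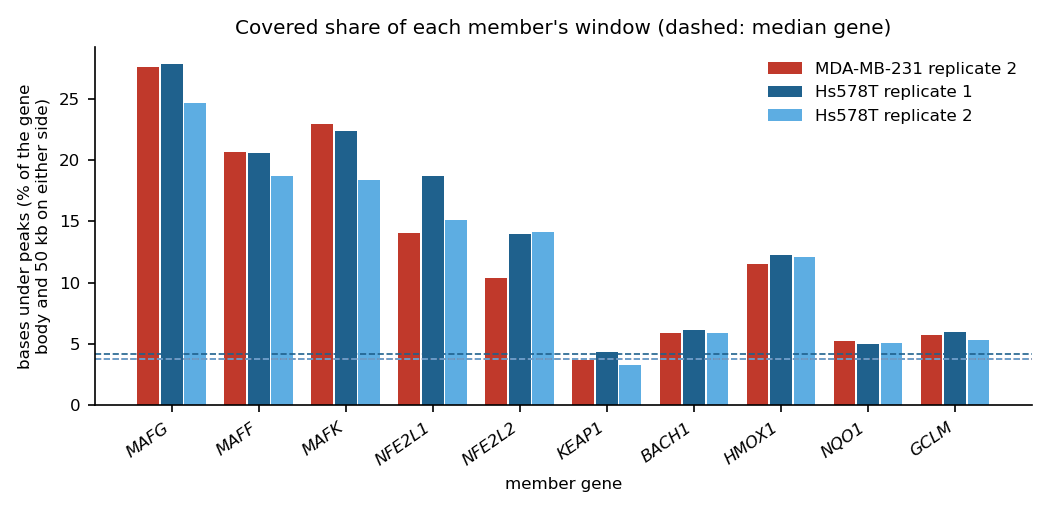
Share of each member's window, the gene body with 50 kb on either side, that lay under peaks (vertical axis, percent, bars starting at 0), with 1 bar per large list. Dashed lines give the median protein-coding gene of each list. MAFG, MAFK and MAFF have the highest bars and KEAP1 the lowest, at 3.28 to 4.36%.

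The lists of both lines named nearly the same regions. Merged over lists, the windows held 84 regions, of which 67 (79.8%) were called in all 3 large lists, 10 at own starts, 29 at other starts and 28 at no start site. Over the genome 74.5% of merged regions were called in these 3 lists and not in the fourth, so the members' share was near the background. The 17 regions that a large list missed were weak and short, with no fold enrichment above 3.98 and a median width of 582 bp against 2660 bp for the shared ones. Of the shared regions, 3 also had no fold enrichment above 3.98. A merged region spans the peaks of every list that called it, so part of the difference in width is built in. Of the 84 regions, 1 was called in both Hs578T lists and not in MDA-MB-231, at 26382 bp after the NFE2L1 start (3.14 and 2.82), beside 5.50% of merged regions over the genome. MDA-MB-231 replicate 2 alone called 2, at 33560 bp after BACH1 (2.93) and 50323 bp after HMOX1 (3.84), beside 3.77% over the genome. Hs578T replicates 1 and 2 each called 5 alone, beside 6.67% and 4.68%, and the other 4 were in MDA-MB-231 replicate 2 and a single Hs578T list. Without a second large MDA-MB-231 list, a difference between lines cannot be told apart from one between libraries.

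The widest difference in covered bases was at NFE2L2, with 28473 bp in MDA-MB-231 replicate 2 against 38310 and 38767 bp in Hs578T (mean 38538 ± 323, SD, n = 2). Most of it came from a weak region at 38961 bp after the start site, where peaks covered 894, 6665 and 7161 bp with fold enrichments of only 2.77, 3.17 and 3.06. For 4 of 10 members the MDA-MB-231 value was inside the range of the Hs578T replicates, for 3 above and for 3 below. The order of promoter fold enrichment over the 10 members was similar between lists. Spearman's correlation was 0.939 and 0.879 for MDA-MB-231 replicate 2 with the first and second Hs578T list, and 0.915 between the Hs578T replicates. Over all protein-coding genes with a promoter peak in both lists it was 0.929, 0.908 and 0.957. These are correlations across genes, which share each library, and genes are not replicates.

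The share of peaks with the core TGACNNNGC was higher near the members than over the whole list, by a margin close to the counting error. In the 1 kb around the peak midpoint it was found in 32 of 74 peaks (43.2%, 95% Wilson interval 32.6 to 54.6%), 38 of 79 (48.1%, 37.4 to 58.9%) and 38 of 78 (48.7%, 37.9 to 59.6%) of the 3 lists. Over all peaks of each list the share was 35.8%, 35.4% and 35.4%. Anywhere in the peak it was found in 62.2%, 65.8% and 66.7% of peaks near members, beside 46.8%, 46.9% and 45.8% of all peaks. A wider peak offers more bases for a match, here and for the motifs below. Among peaks at no start site, those near members had median widths of 1459, 1693.5 and 1651 bp. Over each list the medians at no start site were 1214, 1230 and 1195 bp. Whether width accounts for the higher shares was not tested. In the 1 kb window the interval of MDA-MB-231 replicate 2 holds its background and those of the Hs578T lists do not. The lists share nearly all regions, however, and the intervals cover counting error only. In the 500 bp around the midpoint the intervals of MDA-MB-231 replicate 2 and Hs578T replicate 1 hold their backgrounds, and that of Hs578T replicate 2 does not. AP-1 sites, TGACTCA, were also counted in the 1 kb window. They were found in 28.4%, 27.8% and 35.9% of the peaks near members, beside 38.4%, 37.9% and 37.8% of all peaks. The 95% Wilson intervals near members (19.4 to 39.5%, 19.2 to 38.6% and 26.1 to 47.0%) hold these backgrounds. Anywhere in the peak the order was reversed. The shares were 51.4%, 48.1% and 53.8% near members, beside 45.5%, 45.7% and 44.8% of all peaks. The composite motif was found in 4, 5 and 6 of the peaks near members in that 1 kb (5.41%, 6.33% and 7.69%), beside 1.61%, 1.63% and 1.61% of all peaks. Anywhere in the peak, it was in 7 peaks of each list (9.46%, 8.86% and 8.97%), beside 2.25%, 2.23% and 2.16%. A match is a sequence and not a bound site.

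The core was present 681 times in the members' windows and 93 times under peaks of all 3 large lists. MAFG, NFE2L2 and BACH1 had the most of these shared matches (17, 18 and 17), and KEAP1 and GCLM the fewest (2 each). The AP-1 site was present 307 times, 54 of them under such peaks, and none under a peak near KEAP1. Of the 93 core matches, 13 were spelled TGACTCAGC, which contains the AP-1 site, and 8 TGACAGAGC, a spelling that Alu repeats often carry. For 8 of 10 members, 14 RefSeq promoters of 300 bases were at hand (hg38). A core was present in 3 of the 14, beside 13.3% of 35116 RefSeq promoters. These were the promoters of MAFF at its canonical start, of GCLM, and of KEAP1 at a start 585 bp from the canonical one, whose own promoter held none. None of the 14 held the composite (0.154% of all). TGACTCA was present in 1 of the 14, that of BACH1 at its canonical start (4.95% of all).

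The wider pathway carried the mark at most start sites. Of 34 further NRF2 targets 30, 30 and 27 had a promoter peak (88.2%, 88.2% and 79.4%). Missing from all 3 large lists were GPX2, a glutathione peroxidase, and the aldo-keto reductases AKR1B10, AKR1C1 and AKR1C2. AKR1C1 and AKR1C2 are near-identical copies, and whether reads were split or lost between them was not tested. FECH, AKR1C3 and PIR had weak peaks of at most 3.86 in MDA-MB-231 replicate 2 and Hs578T replicate 1 and none in Hs578T replicate 2. Among the strongest were FTL (22.9) and TXNRD1 (20.1) in MDA-MB-231 replicate 2, TXNRD1 (26.6) and FTL (21.0) in Hs578T replicate 1, and ABCC2 (16.8) and SLC7A11 (16.7) in Hs578T replicate 2. They encode ferritin light chain, thioredoxin reductase, a conjugate exporter and the cystine transporter. The list's median fold enrichment was 10.4, 8.64 and 7.60, near the medians over all genes given above.

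All 10 genes that control NRF2 stability had a promoter peak in each list, with medians of 12.0, 11.8 and 9.37. GSK3B, the kinase that marks NRF2 for a KEAP1-independent ligase, was highest in each (28.4, 22.1 and 17.9). SQSTM1, which encodes the KEAP1-binding autophagy receptor p62, followed in MDA-MB-231 replicate 2 (25.02), then SYVN1, an ER ubiquitin ligase (19.8). SKP1, a subunit of SCF ubiquitin ligases, was next in Hs578T replicates 1 (19.2) and 2 (14.5), followed by SYVN1 (14.1) in the former and SQSTM1 (14.0) in the latter. Of the 7 CNC and large MAF relatives 5, 5 and 4 had a promoter peak. NFE2 of the erythroid lineage and MAF had none, and BACH2, a repressor of lymphocytes, had a weak one in MDA-MB-231 replicate 2 (4.57) and Hs578T replicate 1 (3.92) and none in Hs578T replicate 2. NRL, a rod photoreceptor factor (28.1, 23.4 and 16.8), and NFE2L3 (16.998, 15.3 and 13.02) were the highest. MAFA followed in MDA-MB-231 replicate 2 (7.38). Neighbouring start sites were not examined for the genes of the pathway lists, so a peak cannot be assigned to the listed gene alone. In MDA-MB-231 replicate 1 no gene of these lists was marked at its start site.

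**Figure D5:**
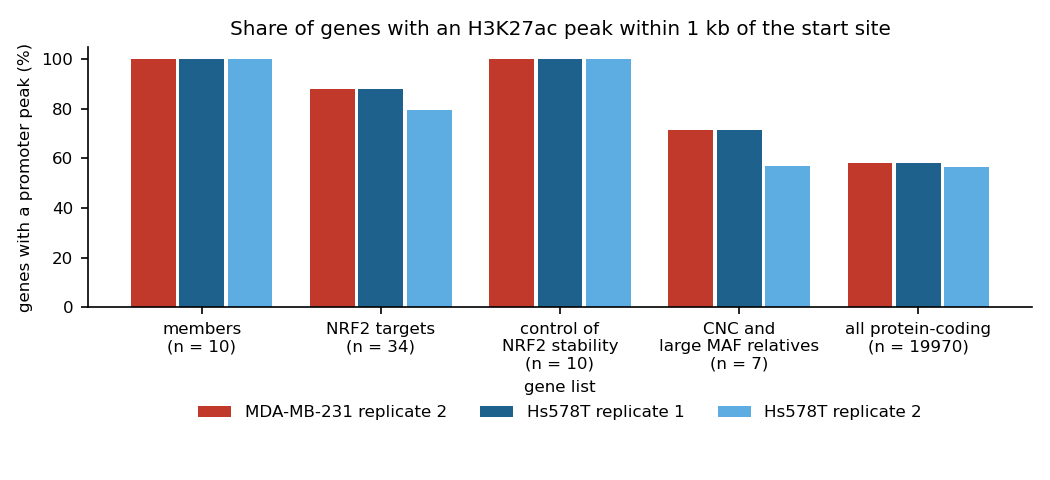
Percentage of genes with a peak within 1 kb of the start site (vertical axis, bars starting at 0) for the members, the 3 pathway lists and all protein-coding genes, with 1 bar per large list. The members and the 10 genes for control of NRF2 stability are at 100%, and the 34 NRF2 targets at 79.4 to 88.2%. The 7 CNC and large MAF relatives are at 71.4%, 71.4% and 57.1%, beside 56.4 to 58.2% of all protein-coding genes.

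The genes most like MAFG were ARHGEF2, STX1A and SPRY1. Likeness was the Euclidean distance between genes in 6 percentiles, those of promoter fold enrichment and of covered share in the 3 large lists, over 11112 genes with a promoter peak in all of them. The distances from MAFG were 6.64, 6.83 and 7.45 percentile points.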

How the data were processed

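H3K27ac ChIP-seq was measured in 4 libraries. Per the submitters' processing notes and the study's methods, the authors trimmed reads with Trimmomatic, mapped them to hg38 with Bowtie2, called peaks per library with MACS2 against input and removed blacklisted regions. Versions and settings were not given in the sources used here. The deposited lists have 9 columns: position, a score, a fold enrichment (a ratio over local background) and −log10 p and q values. The largest deposited q-value was 0.0827 to 0.0994 across lists. Because peaks were called per library, list sizes move with depth and input.

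Peaks on chromosomes 1 to 22 and X were overlapped (at least 1 bp) with the start site of the Ensembl canonical transcript and with gene bodies of GENCODE release 44, using python 3.11.15, pandas 2.3.3 and numpy 2.4.6. No peak ran past a chromosome end of the reference. A gene's promoter value was its overlapping peak of highest fold enrichment, and percentiles were taken within a list. A peak was said to be at a start site where a canonical start of any gene lay under it or within 1 kb of it. Motifs were searched on both strands. Functions were tested on simulated data. The members and gene lists were chosen with earlier results of these data known. All members were named, as were the strongest peak at no start site, the neighbour at a window's highest peak, pathway genes without a promoter peak, the 3 with the highest fold enrichment, and the 3 genes nearest to MAFG. Some genes that met this rule are not reported here. The composite sites, other regions above a promoter and the spaced cores were chosen after their values were seen. Other windows, start sites, peak thresholds, merging, motif settings and left-out replicates were tried as alternatives.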

Additional observations from a re-analysis of the deposited data

How the results depend on the processing

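No paired analysis was possible because the lists enter no test. Recomputing 17 results gave 123 values: 80 stayed within the replicate spread, within 1.5 times a count or within the 95% interval, and 43 moved. None of the values can be negative, so a change of sign was not possible. For the MDA-MB-231 mean of covered bases the spread was its SD of 132064 bp. Its values of 186767 bp without replicate 1 and 0 bp without replicate 2 therefore count among those that stayed. Every member kept its promoter peak under each promoter window and start-site set tried, and among the strongest 50% of peaks the Hs578T mean was 9.5 members.

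A locus window of 10 kb gave 42 peaks in Hs578T, 18.5 as MDA-MB-231 mean and 37 in MDA-MB-231 replicate 2, covering 108448 bp in Hs578T and 101309 bp in MDA-MB-231 replicate 2. It left 35 regions in every large list, 0 only in Hs578T lists and 1 only in MDA-MB-231. A window of 100 kb gave 123, 60.5 and 121 peaks, 290826 and 283456 bp, and 106 shared regions with 4 only in MDA-MB-231. The strongest 50% of each list gave 52 peaks and 163380 bp in Hs578T, 165886 bp in MDA-MB-231 replicate 2, and 0 regions only in Hs578T and 1 only in MDA-MB-231. With the 40000 strongest peaks, which leaves out MDA-MB-231 replicate 1, the MDA-MB-231 values were 10 members and 70 peaks. Requiring peaks to cover 50% of a region gave 2 regions only in Hs578T. The canonical transcript as gene body, chosen after seeing the data, gave 158256 bp in Hs578T and 150774 bp in MDA-MB-231 replicate 2. These changes follow from fewer or more bases and peaks being counted.

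Leaving out 1 list at a time, MDA-MB-231 had 0 to 10 members with a promoter peak and 0 to 74 peaks, regions only in Hs578T lists numbered 1 to 69 and regions only in MDA-MB-231 0 to 5. The core was found in 22.97%, 25.3% and 30.8% of peaks near members (MDA-MB-231 replicate 2, Hs578T replicates 1 and 2) within 500 bp, beside 21.1%, 20.9% and 20.8% of all peaks (95% Wilson intervals near members 14.9 to 33.7%, 17.03 to 35.9% and 21.6 to 41.7%), and in 62.2%, 65.8% and 66.7% anywhere in the peak. For the composite motif the shares were 5.41%, 6.33% and 7.69%. Depth was unknown, so for a region missing from a list, absence cannot be told apart from missed detection.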
